A study of Mus musculus with 6 samples.

Results

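The genes described here encode proteases of the extracellular matrix and their inhibitors. Symbols beginning with Adamts, Adamtsl or Mmp and a number, together with Timp1 to Timp4, gave 50 of the 32285 genes in the count matrices: 19 Adamts, 5 Adamtsl, 22 Mmp and 4 Timp genes. Their level was mapped over classes of hippocampal nuclei, and libraries from mice given sevoflurane were compared with libraries from mice given oxygen.

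Nuclei were isolated from frozen hippocampus of mice aged 18 to 20 months, whose strain and genotype were not given in the sources used here. In the sevoflurane group, 3 libraries came from mice that breathed the volatile anaesthetic at 2% with 60% oxygen, at 1 L/min for 6 h. In the oxygen group, 3 libraries came from mice that breathed 60% oxygen without it, with equal flow and duration. How many mice made a library, and whether libraries came from separate animals, is not in the labels. The p-values therefore measure only how far libraries spread, which may be technical. Replicates 1 and 2 of both groups were labelled male and replicate 3 female. In 3 libraries the sex-linked genes went against that label: sevoflurane replicate 1 had 1363 CPM (counts scaled to a common total, defined below) of Xist and 0.35 CPM over 4 Y-linked genes, while the libraries labelled female, replicate 3 of each group, had 373 and 367 CPM over those Y-linked genes. Each called gene is therefore also given below by what happened when each library was left out in turn.

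The deposited libraries held 56334621 to 72636984 unique molecular identifiers (UMIs, counted molecules), and 51874 nuclei were kept, 7734 to 9708 a library, with a median of 4664 to 6090 UMIs. Of 53492 barcode sequences, 331 occurred in at least 2 libraries. Clusters were named from marker genes that include none of the 50, and a named class is called "-like". Of 12 endothelial markers all were detected in the endothelial-like class, as were 10 of 10 microglial, 8 of 8 ependymal and 15 of 15 mural markers in theirs. The classes were named from these same lists, so detection is no separate check of the names. Choroid plexus-like nuclei numbered 60, 16 and 99 in the oxygen libraries and 0 in each sevoflurane library. Levels are UMIs of a gene scaled to a common total of the UMIs of a class in a library (CPM). CPM is not corrected for transcript length, so levels are compared between classes and groups within a gene, never between genes.

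Matrix metalloproteinases and ADAMTS proteases cut proteins outside the cell with a zinc ion in the active site. Several ADAMTS enzymes cut lecticans, the proteoglycans of brain matrix and perineuronal nets, others remove the ends of procollagens, and the ADAMTS-like proteins have the accessory domains without the catalytic one. Some metalloproteinases are secreted and others are anchored in the plasma membrane. TIMP proteins sit in the active site and block it, and TIMP3 is bound to the matrix and also inhibits some ADAMTS enzymes. In brain vessels these proteins act on the basement membrane shared by endothelium, mural cells and astrocyte endfeet.

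Adamts1, Adamts9 and Timp3 were higher in every sevoflurane library than in every oxygen library in endothelial-like nuclei, and the sequence before the start of these genes is therefore shown. It was taken from RefSeq (build GRCm38.p6), which had a promoter entry for 35 of the 50 genes, and is given 5′ to 3′ on the strand of the gene up to the base before the start. Capitals mark a GC box (GGGCGG, either strand) or a TATA box (TATAAA).
Adamts1, chr16:85803114-85803363, minus strand: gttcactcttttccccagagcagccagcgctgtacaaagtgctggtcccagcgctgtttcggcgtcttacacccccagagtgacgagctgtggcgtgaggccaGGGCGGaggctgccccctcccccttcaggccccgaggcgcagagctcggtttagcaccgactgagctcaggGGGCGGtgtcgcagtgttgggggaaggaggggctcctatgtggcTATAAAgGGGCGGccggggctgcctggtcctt
Adamts9, chr6:92943535-92943784, minus strand: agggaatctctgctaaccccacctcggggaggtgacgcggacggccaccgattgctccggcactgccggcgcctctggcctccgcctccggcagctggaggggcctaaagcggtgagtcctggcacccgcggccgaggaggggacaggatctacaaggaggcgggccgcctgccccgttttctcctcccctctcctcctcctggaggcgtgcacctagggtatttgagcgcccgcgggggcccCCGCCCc
Timp3, chr10:86300162-86300371, plus strand: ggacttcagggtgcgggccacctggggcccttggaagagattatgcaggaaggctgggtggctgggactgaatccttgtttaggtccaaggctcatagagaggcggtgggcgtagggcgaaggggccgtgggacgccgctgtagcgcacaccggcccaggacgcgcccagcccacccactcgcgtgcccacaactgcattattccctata
The Adamts1 sequence holds 3 GC boxes and a TATA box, and that of Adamts9 holds 1 GC box. The Timp3 sequence ends 40 bases before the RefSeq start, since those bases lie inside the GENCODE gene, and its 1 GC box is in the bases left out. For Adamts9 the RefSeq start lies upstream of the GENCODE gene. Bases after the RefSeq start were found in 0 GENCODE transcripts of Adamts9, and in 1 each of Adamts1 and Timp3. Over all 32851 promoters, counted in the 250 bases before the start on both strands, 32.7% hold a GC box and 12.4% a TATA box. No match was found in the 3 promoters to an AP-1 site (TGANTCA, in 6.75% of promoters), a cyclic AMP response element (TGACGTCA, 1.55%), a serum response element (1.47%) or the core ACGTG of a hypoxia element (16.6%). A match, or none, describes these letters in these windows only.

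Of the 50 genes, 33 reached a mean of at least 10 CPM over the 6 libraries in at least 1 class. For choroid plexus-like nuclei the mean and SD are over the 3 oxygen libraries, the only ones that held them. Among these 33, the mean of the highest class exceeded that of the next class by more than the larger SD for 11 genes, and for 6 of them the ranges of the 6 libraries did not overlap. Classes come from the same nuclei, so these orders are a description with no test. Genes in the following paragraphs that are given by their mean only were picked after their values were seen.

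**Figure D1:**
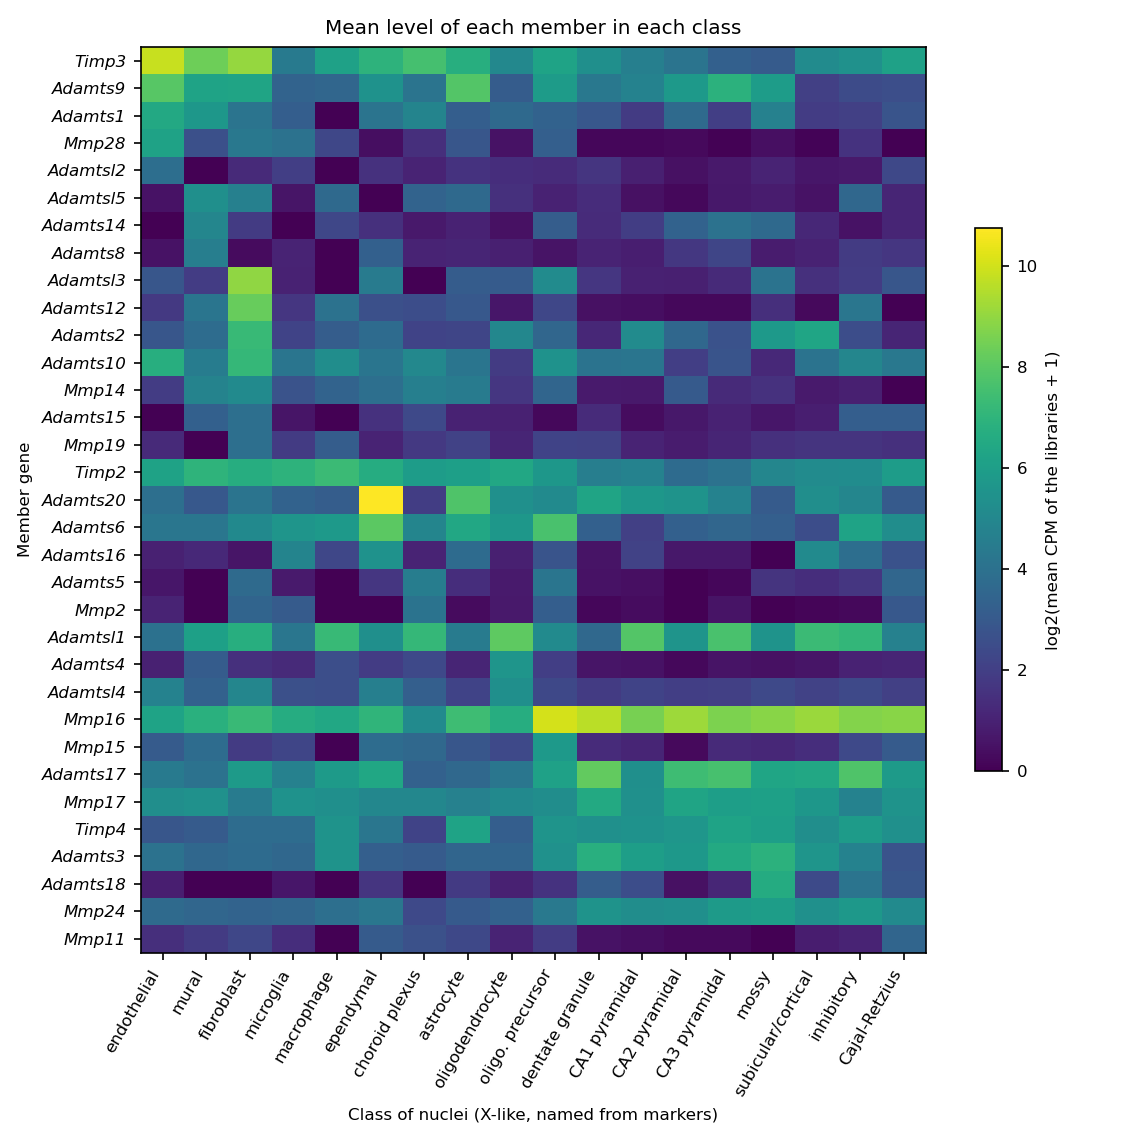
Mean level of the 33 genes that reached 10 CPM in a class (rows) in 18 classes of nuclei (columns), as log2 of the mean CPM of the 6 libraries plus 1, with the choroid plexus column from the 3 oxygen libraries. Timp3 is brightest in the endothelial column at 934 CPM, Adamts20 in the ependymal column at 1734 CPM and Mmp16 in the oligodendrocyte precursor column at 1086 CPM.

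The lectican-cleaving enzymes differed in where they were found. Adamts20 was at 1734 ± 167 CPM (SD, n = 6 libraries) in ependymal-like nuclei, the ciliated lining of the ventricles, against 221 ± 77.5 in astrocyte-like nuclei, and the ranges did not overlap. Adamts4 was highest in oligodendrocyte-like nuclei at 48.2 ± 5.63 CPM. Adamts9 was highest in endothelial-like nuclei at 252 ± 384 CPM, a mean set by the sevoflurane libraries, and at 232 ± 67.2 CPM in astrocyte-like nuclei, which did not differ beyond the spread. Adamts1 was likewise at 89.2 ± 78.6 CPM in endothelial-like and 50.6 ± 88.3 CPM in mural-like nuclei. The highest levels of Adamts5 (22.3 ± 21.9 CPM, choroid plexus-like, 3 oxygen libraries), Adamts8 (23.1 ± 19.3, mural-like) and Adamts15 (14.2 ± 9.61, fibroblast-like) rested on 29, 7 and 24 UMIs.

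The 3 procollagen-processing enzymes had their highest means in 3 different classes. Adamts2 was at 151 ± 76.9 CPM in fibroblast-like and 78.9 ± 20.7 CPM in subicular or cortical excitatory-like nuclei, within the spread. Adamts3 was at 121 ± 29.4 CPM in mossy-like and 110.1 ± 14.03 CPM in dentate granule-like nuclei, again within the spread. Adamts14 reached 29.7 ± 55.5 CPM in mural-like nuclei on 11 UMIs, and 15.5 ± 3.81 CPM in CA3 pyramidal-like nuclei. Adamts12, a further protease of this family, was at 309 ± 152 CPM in fibroblast-like nuclei against 18.0 ± 5.26 in inhibitory-like nuclei, with ranges apart.

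Enzymes linked to microfibrils (Adamts6, Adamts10, Adamts17) and the less studied Adamts16 and Adamts18 had their highest class in neurons, ependyma or, for Adamts10, fibroblasts. Adamts17 was at 289.5 ± 21.5 CPM in dentate granule-like and 224.5 ± 21.3 CPM in inhibitory-like nuclei, with ranges apart. Adamts18 was at 96.0 ± 25.7 CPM in mossy-like nuclei, the excitatory cells of the dentate hilus, against 16.6 ± 7.18 in inhibitory-like nuclei, with ranges apart. Adamts6 was at 263.5 ± 61.0 CPM in ependymal-like and 201 ± 36.1 CPM in oligodendrocyte precursor-like nuclei. Adamts16 was at 44.0 ± 16.4 CPM in ependymal-like and 34.1 ± 3.25 CPM in subicular or cortical excitatory-like nuclei, within the spread. Adamts10 was at 141 ± 59.8 CPM in fibroblast-like and 105 ± 14.4 CPM in endothelial-like nuclei, within the spread.

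Of the ADAMTS-like genes, Adamtsl3 was at 495 ± 310 CPM in fibroblast-like nuclei and 35.5 ± 11.4 CPM in oligodendrocyte precursor-like nuclei. Its fibroblast level was uneven: 0 UMIs in the 18 nuclei of sevoflurane replicate 2, and 376 to 934 CPM in the other libraries. Adamts2 was also at 0 UMIs in those 18 nuclei, while Adamts12 was at 572.5 CPM there, the highest of the 6 libraries. Adamtsl1 was at 272 ± 46.2 CPM in oligodendrocyte-like and 236 ± 74.1 CPM in CA1 pyramidal-like nuclei, within the spread.

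The membrane-anchored metalloproteinases were found in neurons, oligodendrocyte precursors and stromal cells. Mmp16 gave 188823 UMIs in all nuclei. It was at 1086 ± 102 CPM in oligodendrocyte precursor-like and 795 ± 143 CPM in dentate granule-like nuclei, and its 3 lowest classes were choroid plexus-like at 34.9, endothelial-like at 74.0 and macrophage-like at 86.6 CPM. Mmp15 was at 53.8 ± 24.3 CPM in oligodendrocyte precursor-like nuclei against 13.2 ± 6.00 in ependymal-like nuclei, with ranges apart. Mmp17 (90.6 ± 6.23 CPM, dentate granule-like) and Mmp24 (62.3 ± 8.85 CPM, mossy-like) did not stand clear of the next class, which was CA2 pyramidal-like at 76.7 CPM and CA3 pyramidal-like at 57.2 CPM. Mmp14, the activator of pro-MMP2, was at 34.9 ± 16.1 CPM in fibroblast-like and 27.1 ± 30.1 CPM in mural-like nuclei.

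Of the secreted metalloproteinases, 4 reached 10 CPM in a class. Mmp28 was at 73.4 ± 19.0 CPM in endothelial-like nuclei against 19.0 ± 11.7 in fibroblast-like nuclei, with ranges apart. Mmp19 (14.1 ± 11.8 CPM, fibroblast-like), Mmp2 (16.3 ± 12.1 CPM, choroid plexus-like, 3 oxygen libraries) and Mmp11 (10.3 ± 10.7 CPM, Cajal-Retzius-like) rested on 28, 18 and 7 UMIs in those classes. The gelatinases Mmp2 and Mmp9, often measured in studies of the blood-brain barrier, gave 201 and 263 UMIs in all nuclei. Mmp9 had 0 UMIs in endothelial-like, mural-like and microglia-like nuclei, which allows up to 2.03, 7.71 and 0.898 CPM over the 6 libraries (3 counts, counting error only). Mmp7 and Mmp20 had 0 UMIs in all nuclei, and 8 further Mmp genes (Mmp1b, Mmp3, Mmp8, Mmp10, Mmp12, Mmp13, Mmp25 and Mmp27) had 1 to 41 UMIs.

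The 4 inhibitors had different maps. Timp3 was at 934 ± 325 CPM in endothelial-like nuclei and 524 ± 217 CPM in fibroblast-like nuclei. Timp2, which also takes part in the activation of pro-MMP2, was at 159 ± 45.3 CPM in macrophage-like, 128 ± 84.2 in mural-like and 123 in microglia-like nuclei, and its lowest class was CA2 pyramidal-like at 12.5 CPM. Timp4 was at 75.5 ± 14.6 CPM in CA3 pyramidal-like and 74.2 ± 10.2 CPM in astrocyte-like nuclei, within the spread. Timp1 had 263 UMIs in all nuclei, reached 5.40 ± 4.54 CPM in fibroblast-like nuclei and had 0 UMIs in endothelial-like, mural-like and microglia-like nuclei.

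Sums over all nuclei of a library were compared first. In such sums, fewer cells of a type and less RNA per cell cannot be told apart. By edgeR's quasi-likelihood test with adjusted p under 0.05, called here throughout, 0 of the 40 genes that passed the count filter were called, against 2.01% of all 20777 genes tested. At an unadjusted p under 0.05 there were 6 of the 40, beside 3939 of all 20777 genes. DESeq2 called 3, Mmp16, Adamtsl5 and Adamts2, beside 1418 of all 20770 genes it tested. The median log2 fold change of the 40 genes was -0.04, beside 0.01 for all genes, where a positive value means higher with sevoflurane.

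Adamts2 was at 18.0, 19.9 and 26.5 CPM in sevoflurane replicates 1 to 3 and 35.8, 29.9 and 33.0 CPM in oxygen replicates 1 to 3. The groups did not overlap, but the log2 fold change of -0.61 was not called by edgeR (adjusted p 0.0829). For Mmp16 it was -0.33 (adjusted p 0.100 by edgeR) and for Adamts20 0.21 (adjusted p 0.199 by edgeR). None of the inhibitors was called: Timp3 was at 34.6, 47.6 and 57.2 CPM with sevoflurane and 46.3, 44.9 and 50.7 CPM with oxygen. Timp2 was at 34.3, 39.8 and 36.7 against 40.7, 34.5 and 37.4 CPM, Timp4 at 31.1, 55.3 and 35.8 against 46.4, 58.5 and 38.6 CPM, and Timp1 at 0.789, 0.574 and 0.713 against 0.668, 0.618 and 0.939 CPM. For each inhibitor the groups overlapped.

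Each class with at least 20 nuclei in every library was then fitted by itself, which gave 12 classes. Over these, 34 of the 50 genes passed the count filter in at least 1 class, in 216 tests of a gene in a class. Of these tests 8 were called, 3 higher and 5 lower with sevoflurane, for 7 genes in 5 classes. This is 3.70% of tests, beside 1.68% of the tests of all genes in the same classes. The filter is on counts, so these genes are those abundant enough to test and not all 50. It asks for enough counts in 3 libraries, which may all be of the same group. Adamts1 and Adamts9 in endothelial-like nuclei passed through the sevoflurane libraries alone. Adamts16 in microglia-like nuclei passed through the oxygen libraries alone. Counts of calls among the genes tested are therefore not independent of such group differences.

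**Figure D2:**
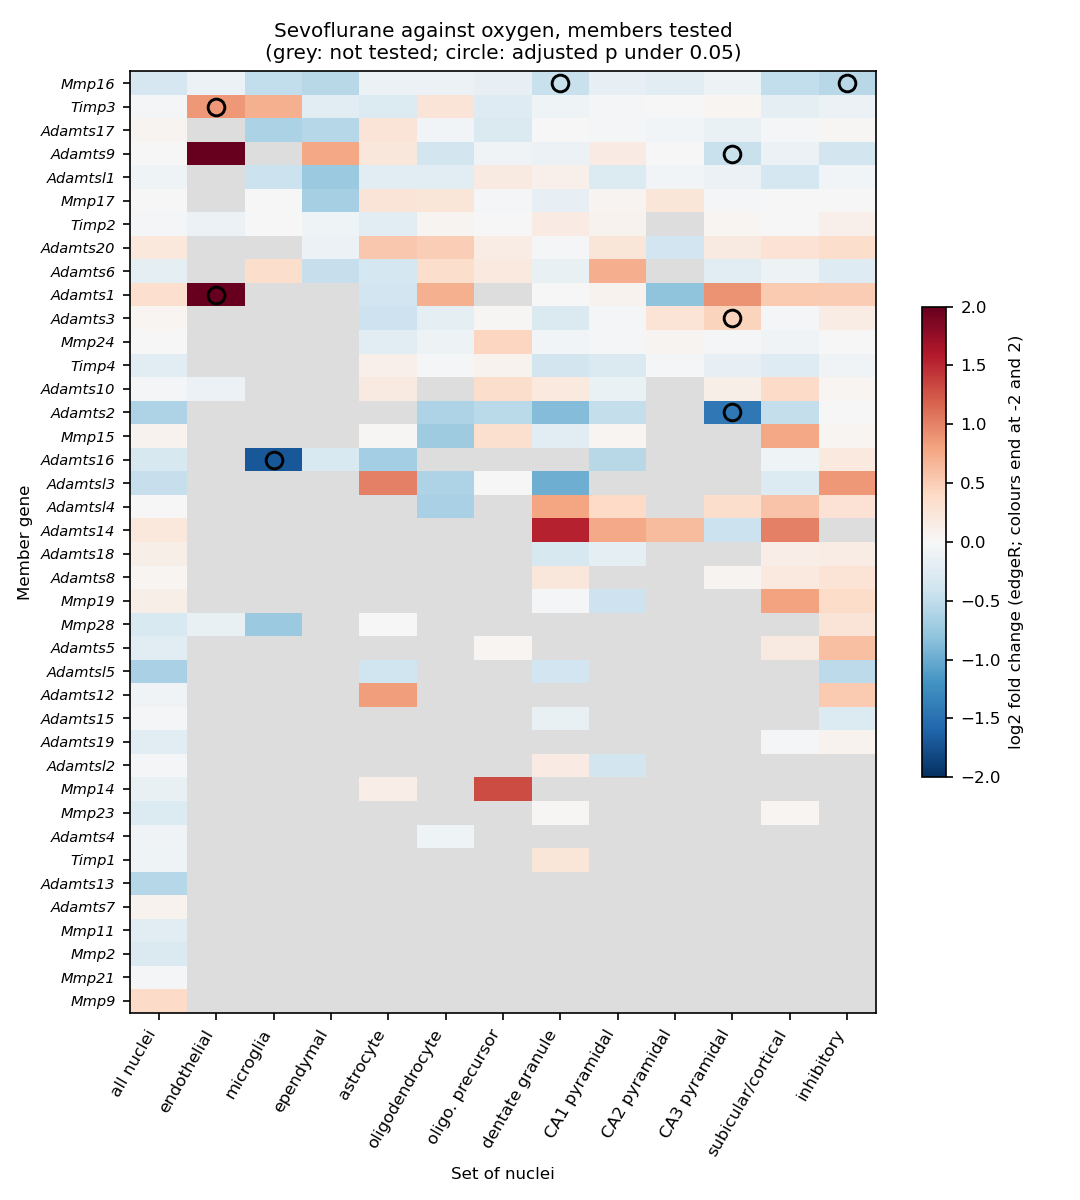
Log2 fold change of sevoflurane over oxygen by edgeR for the 40 genes tested in all nuclei or a class (rows) in all nuclei and 12 classes (columns), with colours that end at -2 and 2. Circles mark the 8 calls, grey cells were not tested, and the endothelial column holds the 2 calls toward higher levels with the largest fold changes.

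In endothelial-like nuclei 2 of 7 genes tested were called, both higher, against 2.19% of all 5149 genes tested there. They were Adamts1 (ENSMUSG00000022893), which cuts lecticans and binds the growth factor VEGF, and the inhibitor Timp3 (ENSMUSG00000020044). In mm10, Adamts1 lies at chr16:85793827-85803113 on the minus strand and Timp3 at chr10:86300372-86349506 on the plus strand. Adamts9 (ENSMUSG00000030022, chr6:92772699-92943492, minus strand), which also cuts lecticans, had a larger difference but was not called. The class held 21, 86 and 139 nuclei in sevoflurane replicates 1 to 3 and 117, 47 and 69 in oxygen replicates 1 to 3.

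Adamts1 was at 230.0, 118 and 92.8 CPM in sevoflurane replicates 1 to 3, on 12, 23 and 35 UMIs, and at 20.2, 32.5 and 41.7 CPM in oxygen replicates 1 to 3, on 6, 5 and 8 UMIs. Every sevoflurane library was above every oxygen library. In each sevoflurane library 1 nucleus held 6 UMIs, out of 12 in replicate 1. No nucleus of the oxygen libraries held more than 1. The log2 fold change was 1.99 (SE 0.41, edgeR adjusted p 0.00306). It lay between 1.66 and 2.30 when each library was left out in turn and was called each time, with edgeR adjusted p from 0.000464 to 0.0210. A UMI of Adamts1 was seen in 6 of 21, 11 of 86 and 20 of 139 endothelial-like nuclei in sevoflurane replicates 1 to 3. In oxygen replicates 1 to 3 it was seen in 6 of 117, 5 of 47 and 8 of 69. Pooled over libraries of uneven size, this was 37 of 246 nuclei with sevoflurane (15.0%) and 19 of 233 with oxygen (8.15%). The medians were 2313 and 2485 UMIs a nucleus. Nuclei are not replicates, and the shares were not tested. In microglia-like nuclei, taken as a class that should hold little of it, the pooled shares were 1.72% and 1.43% at medians of 2023 and 2068 UMIs.

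Timp3 was at 1399, 1101 and 1138 CPM in sevoflurane replicates 1 to 3 and 591, 644 and 730 CPM in oxygen replicates 1 to 3. The groups did not overlap. The log2 fold change was 0.87 (SE 0.22, edgeR adjusted p 0.0187). It stayed between 0.78 and 0.96 when a library was left out, but the call was lost without sevoflurane replicate 2 or 3 or oxygen replicate 1 or 2, with edgeR adjusted p up to 0.0567.

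Adamts9 was at 1016, 159 and 241 CPM in sevoflurane replicates 1 to 3 of the same class, on 53, 31 and 91 UMIs. In oxygen replicates 1 to 3 it had 6, 5 and 8 UMIs, by coincidence the same numbers as Adamts1, and hence the same CPM, 20.2, 32.5 and 41.7. All sevoflurane libraries were above all oxygen libraries, and replicate 1, with 21 nuclei, stood far above the other sevoflurane libraries. The log2 fold change was 3.54 (SE 1.09) and was not called (edgeR adjusted p 0.305). Without sevoflurane replicate 1 it was 2.78 and called (edgeR adjusted p 4.76e-07), without any other single library it was not called, and over all 6 libraries it was called by DESeq2 (3.91, adjusted p 0.00496) and by edgeR without the filter on low counts (3.51, adjusted p 0.00579). A UMI of Adamts9 was seen in 13 of 21, 19 of 86 and 34 of 139 nuclei in sevoflurane replicates 1 to 3. In oxygen replicates 1 to 3 it was seen in 6 of 117, 4 of 47 and 4 of 69. Pooled over libraries, this was 66 of 246 nuclei with sevoflurane (26.8%) and 14 of 233 with oxygen (6.01%). The pooled shares in microglia-like nuclei were 1.72% and 2.15%.

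The endothelial-like class was made of 3 sub-clusters. In the largest, of 409 nuclei, Adamts9 had 49, 26 and 55 UMIs with sevoflurane and 6, 5 and 7 with oxygen. In a small one of 38 nuclei led by the vein-enriched gene Vwf, it had 4, 5 and 36 UMIs in 2, 6 and 11 nuclei with sevoflurane, and 0 UMIs in the 2, 2 and 15 nuclei with oxygen. The third, of 32 nuclei led by Eln and the artery-enriched gene Bmx, was uneven between the groups, with 1, 2 and 3 nuclei after sevoflurane against 5, 5 and 16 after oxygen, and held 1 UMI of Adamts9 and 83 of Timp3. Adamts1 had 81 UMIs in the largest sub-cluster, 3 in that led by Vwf and 5 in that led by Eln. Within the largest sub-cluster alone the log2 fold change was 2.11 for Adamts1 (edgeR adjusted p 0.00318), 0.90 for Timp3 (edgeR adjusted p 0.0185) and 3.14 for Adamts9 (edgeR adjusted p 0.427).

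A further 293 barcodes carried endothelial and mural markers together, 36 to 59 a library, and were left out of both classes. In them Adamts1 was at 181, 187 and 114 CPM in sevoflurane replicates 1 to 3 and 14.2, 35.6 and 24.9 CPM in oxygen replicates 1 to 3. Adamts9 was at 252, 142 and 107.9 against 34.4, 28.0 and 27.4 CPM, and Timp3 at 1051, 1649 and 1423 against 582, 633 and 502 CPM. The groups did not overlap for any of the 3 genes. In each library these barcodes held more UMIs than the endothelial-like class. In sevoflurane replicate 1 they held 237845 against 61206, and in oxygen replicate 1 494521 against 353296. Sums of both are therefore mostly sums of these barcodes. With these barcodes added to the endothelial-like class, an analysis chosen after seeing the data, edgeR called Adamts1 (log2 fold change 2.49, adjusted p 0.000272), Timp3 (1.12, adjusted p 0.00244) and Adamts9 (2.89, adjusted p 0.0168) higher, and Adamts2 lower (-2.43, adjusted p 0.0159).

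**Figure D3:**
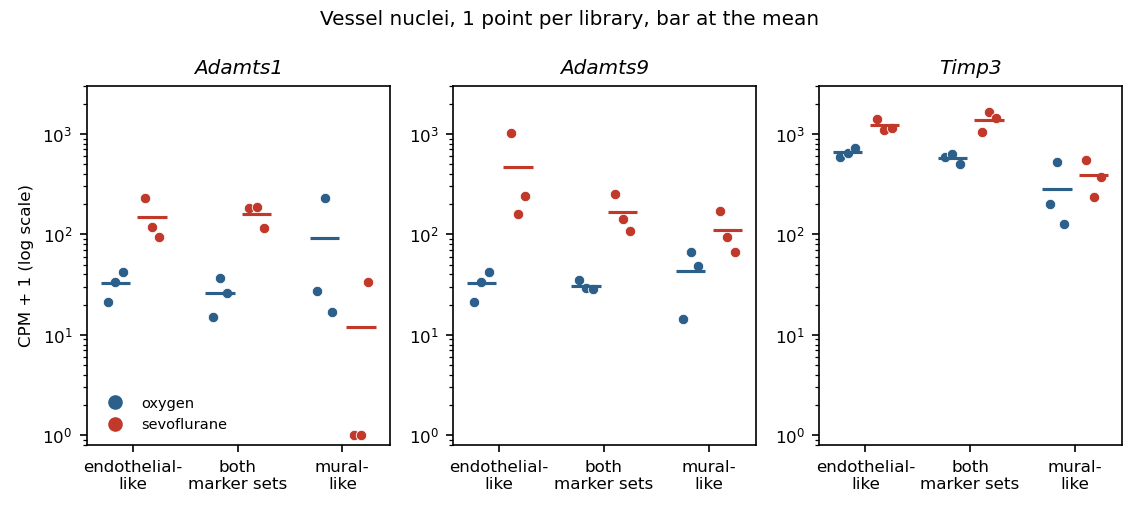
CPM plus 1 on a log axis of Adamts1, Adamts9 and Timp3 in endothelial-like nuclei, in barcodes with both endothelial and mural markers, and in mural-like nuclei, with 1 point a library and a bar at the mean of 3. In the first and the second set the 3 sevoflurane points lie above the 3 oxygen points for each gene, and in mural-like nuclei the groups overlap for each gene, for Adamts9 by its lowest sevoflurane and highest oxygen library (65.3 and 65.4 CPM).

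Timp2 and Adamts10, which binds fibrillin, were tested in endothelium and not called. Timp4, on 10 UMIs, and Timp1, on 0 UMIs, did not pass the count filter there and were not tested. Adamts10 was at 115, 107.5 and 87.5 CPM in sevoflurane replicates 1 to 3 and 107.5, 124 and 88.6 CPM in oxygen replicates 1 to 3. Timp2 was at 38.3, 76.8 and 79.6 against 67.2, 71.6 and 104 CPM. Timp4 was at 0, 0 and 10.6 against 10.1, 6.51 and 10.4 CPM. In each of these 3 genes the groups overlapped.

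Marker levels were summed in the endothelial-like sets beside these results. Their own list was at 12590 to 17010 CPM with sevoflurane and 14780 to 17850 with oxygen, and the mural list, 14 of 15 detected with Cnn1 at 0, at 2042 to 2372 and 1812 to 2656 CPM. Markers of CA1 pyramidal cells, 6 of 6 detected, were higher with sevoflurane (215 to 327 CPM) than with oxygen (164 to 188 CPM), as were dentate granule markers (168 to 261 against 121 to 133 CPM, 6 of 6 detected). Adamts1 was at 2.63 and 6.56 CPM and Timp3 at 24.3 and 40.6 CPM in the CA1 pyramidal-like and dentate granule-like nuclei themselves, below their levels in the endothelial-like sets. Choroid plexus markers, 7 of 10 detected with Aqp1, Kcne2 and Slc4a5 at 0, were at 49.0 to 101 CPM with sevoflurane and 196 to 1040 CPM with oxygen, and Adamts1 and Timp3 were at 27.6 and 190 CPM in choroid plexus-like nuclei. The part of these other cells in the results was not tested.

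A response was also set against that of all other nuclei of the same library, with limma on the difference of log2 CPM. In endothelial-like nuclei, 0.0388% of 5149 genes were called for such a difference and none of the genes described here. The difference was 1.54 for Adamts1 (adjusted p 0.159 by limma), 0.92 for Timp3 (adjusted p 0.208 by limma) and 3.15 for Adamts9 (adjusted p 0.365 by limma). The other nuclei included the 293 barcodes with endothelial and mural markers, in which all of these genes were also higher with sevoflurane. The part of those barcodes in the differences was not tested. Differences that were not called do not show whether a response was limited to endothelial-like nuclei.

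Mural-like nuclei, the pericytes and smooth muscle cells around the vessels, numbered 36, 22 and 29 in oxygen replicates 1 to 3 and 12, 21 and 58 in sevoflurane replicates 1 to 3, too few for the main test. Timp3 was at 551, 234 and 376 CPM in sevoflurane replicates 1 to 3 and 199, 523 and 126 CPM in oxygen replicates 1 to 3. Adamts1 was at 0, 0 and 32.7 against 26.5, 229 and 15.7 CPM. The groups overlapped for both genes. Adamts9 was at 169, 93.5 and 65.3 against 13.3, 65.4 and 47.1 CPM, where only the lowest sevoflurane and the highest oxygen library overlapped. Timp2 (127, 93.5 and 65.3 against 79.5, 294 and 110 CPM) and Mmp16 (169, 93.5 and 81.6 against 66.3, 147 and 110 CPM) overlapped.

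In microglia-like nuclei 1 of 9 genes tested was called, against 0.497% of all 9258 genes tested. It was Adamts16 (ENSMUSG00000049538, chr13:70727802-70841811, minus strand), an ADAMTS enzyme whose substrates are little known. It was at 9.26, 16.2 and 13.8 CPM in sevoflurane replicates 1 to 3, on 6, 9 and 8 UMIs, and at 31.0, 49.8 and 45.2 CPM in oxygen replicates 1 to 3, on 14, 29 and 17 UMIs. The groups did not overlap. Adamts16 fell by 1.69 on the log2 scale (SE 0.36, edgeR adjusted p 0.0217), and the call was lost without sevoflurane replicate 1 or oxygen replicate 2 or 3, with edgeR adjusted p up to 0.260. The difference from other nuclei was -1.16 and not called (adjusted p 0.234 by limma), where 0.0325% of genes were called.

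Adamts16 in microglia-like nuclei is a low count, seen in 6 of 345, 7 of 275 and 6 of 254 nuclei in sevoflurane replicates 1 to 3. In oxygen replicates 1 to 3 it was seen in 11 of 223, 23 of 279 and 13 of 196. Pooled over libraries, this was 19 of 874 nuclei with sevoflurane (2.17%) and 47 of 698 with oxygen (6.73%). In the same sets, dentate granule markers were at 796 to 1020.0 CPM with sevoflurane and 1021 to 1210.0 with oxygen, and CA1 pyramidal markers at 465 to 527 and 551 to 570 CPM, with 6 of 6 of each list detected. Adamts16 was at 0.496 and 3.39 CPM in the dentate granule-like and CA1 pyramidal-like nuclei themselves. It was at 34.1 CPM in subicular or cortical excitatory-like nuclei, whose markers overlapped between groups in microglia-like nuclei (427 to 503 against 474 to 588 CPM, 11 of 11 detected). Choroid plexus markers, 10 of 10 detected, were at 61.5 to 106 CPM with sevoflurane and 324 to 1794 CPM with oxygen, and Adamts16 was at 1.11 CPM in choroid plexus-like nuclei. The part of these cells in the result was not tested.

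The 4 genes given for microglia-like nuclei, by the highest mean CPM, were Timp2, Mmp16, Adamts6 and Mmp17. Timp2 was at 128, 119 and 120.5 CPM in sevoflurane replicates 1 to 3 and 124, 115 and 130.3 CPM in oxygen replicates 1 to 3. Mmp16 was at 71.0, 95.6 and 84.3 against 126, 101 and 128 CPM and Adamts6 at 66.4, 45.1 and 49.9 against 28.8, 46.4 and 53.2 CPM. The groups overlapped for Timp2 and Adamts6 and not for Mmp16, whose log2 fold change of -0.49 was not called (edgeR adjusted p 0.432). Mmp17 was at 43.2, 57.7 and 31.0 against 46.5, 41.2 and 45.2 CPM.

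In ependymal-like nuclei 0 of 10 genes tested were called by edgeR, against 0.524% of all genes. At an unadjusted p under 0.05 there were 2, given without the share of all genes, and DESeq2 called 0. Adamts20 was at 1916, 1457 and 1624 CPM in sevoflurane replicates 1 to 3 and 1805, 1847 and 1753 CPM in oxygen replicates 1 to 3. Adamts6 was at 253, 147 and 269 against 302, 296 and 313 CPM, with the groups apart but a log2 fold change of -0.47 that was not called (edgeR adjusted p 0.445). Mmp16 was at 121, 77.6 and 126 against 149, 182 and 136 CPM, and Timp3 at 148, 97.0 and 100.5 against 145, 116 and 140.3 CPM.

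Among neurons, CA3 pyramidal-like nuclei held 3 of the 8 calls, out of 18 genes tested and against 1.32% of all 13303 genes there. The procollagen protease Adamts2 (ENSMUSG00000036545, chr11:50602084-50807573, plus strand) was at 2.33, 3.31 and 3.44 CPM in sevoflurane replicates 1 to 3 and 6.48, 9.96 and 7.75 CPM in oxygen replicates 1 to 3. The groups did not overlap, on 16 to 19 and 25 to 47 UMIs a library. Adamts2 fell by 1.44 on the log2 scale (SE 0.28, edgeR adjusted p 0.0217). The call was lost without sevoflurane replicate 1 or oxygen replicate 2 or 3, with edgeR adjusted p up to 0.120.

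Adamts9 was at 96.3, 104.0 and 104.1 CPM in sevoflurane replicates 1 to 3 of CA3 pyramidal-like nuclei, and 138, 151 and 126 CPM in oxygen replicates 1 to 3. It fell by 0.45 on the log2 scale (SE 0.09, edgeR adjusted p 0.0242), and of 6 leave-outs only those of sevoflurane replicate 2 and oxygen replicate 3 kept the call. Adamts3 (ENSMUSG00000043635, chr5:89677087-89883334, minus strand), which processes procollagens and pro-VEGF-C, was at 117, 93.6 and 104 CPM with sevoflurane and 80.4, 70.5 and 79.6 CPM with oxygen. Every sevoflurane library was above every oxygen library. It rose by 0.45 (SE 0.10, edgeR adjusted p 0.0431), a call that of 6 leave-outs only that of sevoflurane replicate 2 kept, with edgeR adjusted p up to 0.207.

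In the CA3 pyramidal-like sets, subicular markers, 11 of 11 detected, were at 2029 to 2421 CPM with sevoflurane and 2426 to 2712 CPM with oxygen, and Adamts2 was at 78.9 CPM in subicular or cortical excitatory-like nuclei. Markers of CA3 itself, 6 of 6 detected, were also lower with sevoflurane, at 3518 to 3724 against 3896 to 4216 CPM. Choroid plexus markers were at 53.8 to 57.7 against 86.9 to 262 CPM, with Adamts2 and Adamts9 at 3.54 and 16.6 CPM in choroid plexus-like nuclei. The part of these lists in the results was not tested.

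The response of Adamts3 in CA3 pyramidal-like nuclei differed from that of other nuclei by 0.46 on the log2 scale (SE 0.09, limma adjusted p 0.0167), where 0.94% of all genes were called. In dentate granule-like nuclei the difference had the opposite sign, -0.48 (SE 0.09, limma adjusted p 0.0381), where 0.652% of genes were called. There Adamts3 was at 107.6, 97.4 and 92.8 CPM with sevoflurane and 116, 131 and 116 CPM with oxygen, with groups apart and a log2 fold change of -0.29 that was not itself called (edgeR adjusted p 0.0785). The differences for Adamts2 (-0.71) and Adamts9 (-0.49) in CA3 pyramidal-like nuclei were not called (adjusted p 0.293 and 0.751 by limma). In all, 89 such differences were tested over 5 classes and these 2 were called. With a library left out, the difference of Adamts3 stayed called in CA3 pyramidal-like nuclei only without sevoflurane replicate 2 or oxygen replicate 1 (0.34 to 0.54 over the 6, limma adjusted p up to 0.0801). In dentate granule-like nuclei it stayed called only without sevoflurane replicate 2 or oxygen replicate 3 (-0.57 to -0.39, limma adjusted p up to 0.119).

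**Figure D4:**
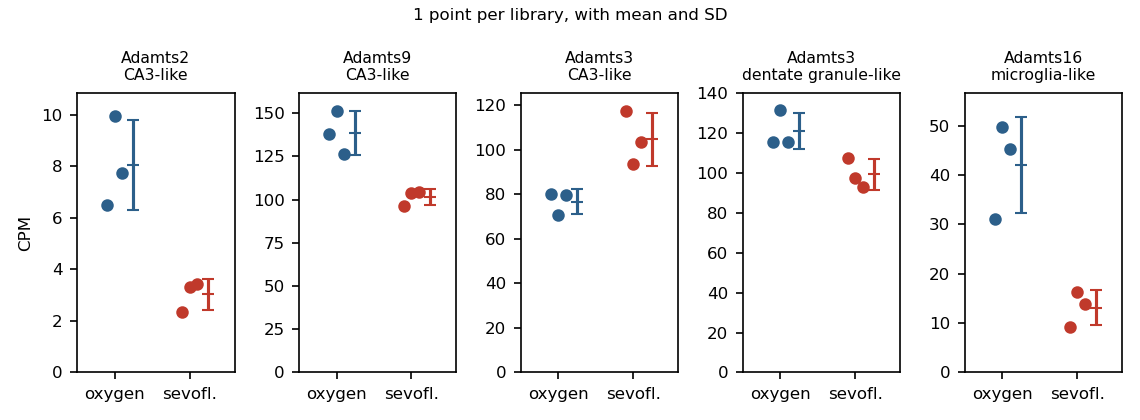
CPM by library of Adamts2, Adamts9 and Adamts3 in CA3 pyramidal-like nuclei, Adamts3 in dentate granule-like nuclei and Adamts16 in microglia-like nuclei, with the mean and SD of 3 libraries. The groups do not overlap in any panel, and Adamts3 is higher with sevoflurane in the CA3 panel (93.6 to 117 against 70.5 to 80.4 CPM) and lower in the dentate panel (92.8 to 107.6 against 116 to 131 CPM).

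Mmp16 (ENSMUSG00000028226, chr4:17852893-18119145, plus strand), a membrane-anchored protease that activates pro-MMP2 and cuts matrix proteins, was called lower in dentate granule-like and inhibitory-like nuclei. In dentate granule-like nuclei it was at 719, 638 and 669 CPM in sevoflurane replicates 1 to 3 and 860.1, 1009 and 876 CPM in oxygen replicates 1 to 3. In inhibitory-like nuclei it was at 381, 298 and 358 against 469.8, 539 and 522 CPM. The groups did not overlap in either class. It fell by 0.44 (SE 0.08, edgeR adjusted p 0.0131) in dentate granule-like and by 0.56 (SE 0.09, edgeR adjusted p 0.00446) in inhibitory-like nuclei, and both calls held in all 6 leave-outs. These were the single calls among 27 and 28 genes tested, against 4.63% and 1.98% of all genes.

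Mmp16 spans 266253 bases, introns included. Where the genomic span of genes was fitted as a smooth trend in each library and removed, the log2 fold changes were -0.29 in dentate granule-like and -0.43 in inhibitory-like nuclei, and neither was called (edgeR adjusted p 0.0852 and 0.0638). As fitted, the log2 fold change of Mmp16 was below 0 in all nuclei and in each of the 12 classes, though in endothelial-like nuclei it was above 0 without sevoflurane replicate 2 or oxygen replicate 1. With the trend removed it lay between -0.43 and 0.02, above 0 in astrocyte-like, oligodendrocyte-like, oligodendrocyte precursor-like and CA3 pyramidal-like nuclei. The difference from other nuclei was -0.27 in inhibitory-like nuclei (adjusted p 0.176 by limma, 0.27% of genes called) and -0.13 in dentate granule-like nuclei (adjusted p 0.439 by limma). Markers of the classes themselves were also lower with sevoflurane, at 1992 to 2138 against 2273 to 2363 CPM in dentate granule-like and 11950 to 12620 against 13240 to 15980 CPM in inhibitory-like nuclei, and their part was not tested.

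**Figure D5:**
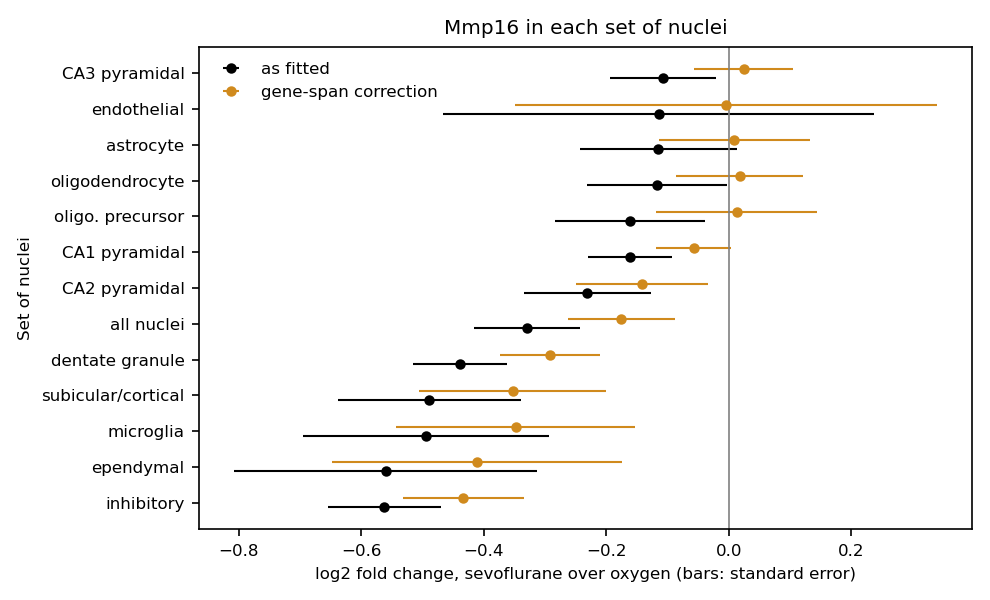
Log2 fold change of Mmp16, sevoflurane over oxygen, by edgeR in all nuclei and 12 classes, with bars of 1 standard error, as fitted (black) and with the trend on gene span removed (orange). All black points lie below 0, and in each set the orange point lies to the right of the black one, above 0 in 4 classes (up to 0.02).

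Over all neuronal classes together, Mmp16 was at 520.2, 472 and 527 CPM in sevoflurane replicates 1 to 3 and 551, 659 and 594 CPM in oxygen replicates 1 to 3, and the groups did not overlap. Adamts17 was at 150.3, 191 and 191 against 164, 154 and 164 CPM, Adamtsl1 at 110.5, 109.8 and 141 against 98.2, 145 and 162 CPM, and Adamts3 at 82.9, 74.0 and 74.4 against 67.2, 73.1 and 73.1 CPM. Of these only Mmp16 and Adamts3 had groups apart. Timp4 was at 34.1, 64.0 and 38.8 against 48.4, 59.6 and 39.3 CPM, and the other inhibitors also overlapped. Pooled neurons were described and not tested.

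In the remaining classes edgeR called 0 of these genes: astrocyte-like (21 tested, 4 at an unadjusted p under 0.05), oligodendrocyte-like (18 and 4), oligodendrocyte precursor-like (18 and 1), CA1 pyramidal-like (22 and 3), CA2 pyramidal-like (12 and 1) and subicular or cortical excitatory-like (26 and 6). The shares of all genes called there were 2.17%, 0.672%, 0.0%, 2.09%, 0.422% and 1.61%. These shares are for adjusted p, so the counts at an unadjusted p have no share of all genes beside them. DESeq2 called Mmp16 in the subicular or cortical excitatory-like class and none in the others. Of the 19 with an unadjusted p under 0.05, 5 are given here, picked after their values were seen: Mmp14 in oligodendrocyte precursor-like nuclei (log2 fold change 1.31, edgeR adjusted p 0.306), Adamtsl4 in oligodendrocyte-like nuclei (-0.65, edgeR adjusted p 0.317), Mmp16 and Adamts20 in subicular or cortical excitatory-like nuclei (-0.49 and 0.29, edgeR adjusted p 0.154 and 0.215), and Adamtsl3 in astrocyte-like nuclei (1.01, edgeR adjusted p 0.149). Adamts20 in astrocyte-like nuclei was not called over 6 libraries, but was called without sevoflurane replicate 1 (0.81, edgeR adjusted p 0.00306) and with no filter on low counts (0.52, edgeR adjusted p 0.0408).

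Substrates and partners were read from the same fits in 3 lists. Of 14 genes of basement membrane and fibronectin, 9 were tested in endothelial-like nuclei and 3 called, against 2.19% of all genes tested there. Both chains of collagen IV, the network of the basement membrane, rose: Col4a1 was at 805, 456 and 652 CPM with sevoflurane and 279, 351 and 302 CPM with oxygen (log2 fold change 1.00, edgeR adjusted p 0.0127). Col4a2 was at 498, 589 and 739.9 against 232, 338 and 235 CPM (1.24, edgeR adjusted p 0.00127). Lama4, a laminin chain of the endothelial basement membrane, fell by 1.36, from 124, 84.6 and 136 CPM with oxygen to 57.5, 46.1 and 42.4 CPM with sevoflurane (edgeR adjusted p 0.0271). With a library left out Col4a2 was called each time, Col4a1 was lost without sevoflurane replicate 3 (edgeR adjusted p 0.0720), and Lama4 stayed called only without sevoflurane replicate 1 or oxygen replicate 2. The median of the 9 was 0.20, beside 0.00 for all genes. In astrocyte-like nuclei 1 of 10 was called, against 2.17% of all genes tested there. It was Col4a1, which rose by 0.83 (edgeR adjusted p 0.0280) and stayed called in 2 of 6 leave-outs, those of sevoflurane replicates 1 and 2.

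Of 21 activators, binding partners and other inhibitors, 11 were tested in endothelial-like nuclei and 2 called, against 2.19% of all genes tested there. Plaur, the urokinase receptor, was at 211, 81.9 and 63.6 CPM with sevoflurane and 30.2, 6.51 and 10.4 CPM with oxygen, and rose by 2.24 (edgeR adjusted p 0.0131). Reck, a membrane-anchored inhibitor of metalloproteinases, was at 115, 102 and 55.7 CPM with sevoflurane and 212, 176 and 162 CPM with oxygen, and fell by 1.23 (edgeR adjusted p 0.0202). For both genes the groups did not overlap. In endothelial-like nuclei Plaur passed the count filter through the sevoflurane libraries alone. Plaur was lost without sevoflurane replicate 1 (edgeR adjusted p 0.0624) and Reck without sevoflurane replicate 3 or oxygen replicate 1 (edgeR adjusted p 0.319 and 0.0772). In the uneven sub-cluster led by Eln, Reck had 0 UMIs with sevoflurane and 35 with oxygen, and Lama4 0 and 14 UMIs. In the largest sub-cluster Reck was at 107.1, 97.6 and 52.4 CPM with sevoflurane and 158, 109 and 90.3 CPM with oxygen, so the groups overlapped. There neither Reck (log2 fold change -0.76, edgeR adjusted p 0.313) nor Lama4 (-1.05, edgeR adjusted p 0.140) was called, while Col4a1, Col4a2 and Plaur were. The median of the 11 was -0.13. Of this list Plaur was called in all nuclei too (log2 fold change 1.71, edgeR adjusted p 0.0302), kept only in the leave-out of sevoflurane replicate 1. It was the single call of the 3 lists there, against 2.01% of all genes tested. The testican genes Spock1 and Spock3, which encode matrix proteoglycans, fell in inhibitory-like nuclei by 0.34 and 0.43 (edgeR adjusted p 0.0401 and 0.0145), and Spock1 by 0.42 in CA3 pyramidal-like nuclei (edgeR adjusted p 0.00824). The CA3 call held in 6 of 6 leave-outs. In inhibitory-like nuclei Spock1 stayed called only without sevoflurane replicate 3, and Spock3 was lost without sevoflurane replicate 2 or 3 or oxygen replicate 2.

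Of 13 lectican matrix genes, the cores, link proteins, tenascins and hyaluronan synthases, 1 was tested in endothelial-like nuclei. In neurons Tnr, tenascin-R of the perineuronal net, was the single call of the list in CA1 pyramidal-like nuclei (9 tested), against 2.09% of all genes. There it fell by 0.43 from 747 to 828 CPM with oxygen to 552 to 626 CPM with sevoflurane (edgeR adjusted p 0.0123). It was also the single call in CA3 pyramidal-like nuclei (6 tested), against 1.32% of all genes. The fall there was 0.40, from 566 to 658 CPM to 448 to 489 CPM (edgeR adjusted p 0.0186). Both calls of Tnr were lost without oxygen replicate 1 or 2, with edgeR adjusted p up to 0.0894. The list medians were 0.10 in CA1 pyramidal-like and -0.20 in CA3 pyramidal-like nuclei, beside 0.01 and 0.02 for all genes. No gene of the list was called in the other sets by edgeR, with 0 to 3 genes a set at an unadjusted p under 0.05.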

How the data were processed

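Nuclei of 6 libraries were measured by droplet 3′ RNA sequencing. The deposited values are raw UMI counts per gene and barcode, made with fastp and Cell Ranger 7.1.0 on mm10, per the submitters' processing notes. The annotation release and the treatment of intronic reads: not given in the sources used here. Protease and inhibitor genes, gene lists and classes were chosen with earlier results of these data known. The thresholds for barcodes with markers of several classes, 3 alternatives and the promoter motifs were chosen after seeing these files.

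Barcodes with at least 500 UMIs, 300 genes and at most 5% mitochondrial UMIs were kept (53287 of 53824). Scrublet scores over a common threshold of 0.289 removed 1413 doublets, since the automatic threshold failed in oxygen replicate 1. Nuclei were clustered with scanpy 1.11.5 and igraph 0.11.9 into 48 clusters, named from marker lists, and 9163 nuclei stayed unnamed.

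Counts were summed per library and class, for classes with at least 20 nuclei in every library. The main test was edgeR 4.0.16 (quasi-likelihood, TMM library sizes, filter on low counts, Benjamini-Hochberg adjustment over all genes tested, two-sided, called under 0.05) in R 4.3.3, without a replicate block. CPM of tested sets are on TMM-normalised library sizes. CPM of marker sums are on plain totals. So are those of sets outside the main test (mural-like, fibroblast-like and other small classes, pooled neurons, barcodes with both vessel markers). Mural-like, fibroblast-like, mossy-like and Cajal-Retzius-like nuclei were fitted only in an alternative with at least 10 nuclei in every library, not reported here. DESeq2 1.42.0 was an alternative, and limma 3.58.1 tested differences between classes and other nuclei (prior count 2). The tests were also run on simulated counts for all nuclei and endothelial-like nuclei, with an outcome not reported here. Values per library are given for called genes, Timp1 to Timp4 and the 4 genes with the highest CPM in endothelium, mural cells, microglia, ependyma and pooled neurons. Gene positions are from GENCODE M21, which matched 32158 of 32285 genes. Alternatives covered the tool, scaling, filters, doublets, clustering, gene span, replicate block, cell mix and each library left out.

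Same-numbered libraries did not deviate together (r from -0.198 to -0.0481 in all nuclei), so numbers were not taken as pairs.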

Additional observations from a re-analysis of the deposited data

Results flagged for a closer look

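The response of Adamts3 to sevoflurane differed between classes and the rest of the nuclei by a test of the difference itself. In CA3 pyramidal-like nuclei the log2 response was 0.46 above that of all other nuclei, and in dentate granule-like nuclei it was -0.48, that is below it (limma, adjusted p 0.0167 and 0.0381). Both held with a prior count of 0.5, and each was lost in 4 of 6 leave-outs. The other nuclei of each comparison include the opposite class, so these differences are not independent of each other.

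Barcodes with endothelial and mural markers carried a signal above the oxygen libraries. They were left out of the endothelial-like and mural-like classes, but were counted among the other nuclei in the limma differences. With sevoflurane their mean was 160 CPM for Adamts1, 168 CPM for Adamts9 and 1374 CPM for Timp3, against 24.9, 29.9 and 573 CPM with oxygen. In each library they held more UMIs a barcode than the endothelial-like or mural-like nuclei. In sevoflurane replicate 1, 36 of them held 237845 UMIs, against 61206 in 21 endothelial-like and 23608 in 12 mural-like nuclei. Whether such a barcode held 2 nuclei or 1 was not tested.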

How the results depend on the processing

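Of the genes followed through all alternatives, the 8 called in classes, and Adamts9 in endothelial-like nuclei, kept their direction. Mmp16, where not called, turned from below to above 0 with the span correction in astrocyte-like (0.0092), oligodendrocyte-like (0.018), oligodendrocyte precursor-like (0.013) and CA3 pyramidal-like nuclei (0.024), and in endothelial-like nuclei with the replicate block (0.0021) and in leave-outs (0.12 without sevoflurane replicate 2 and 0.28 without oxygen replicate 1, with a lowest value of -0.65). Called genes in all nuclei numbered 0, 3 with DESeq2, 1 with equal class shares (Timp3, 0.52) and 0 to 1 with a library left out. The 8 calls in classes became 15 with no filter on low counts, 5 with the gene-span correction and 3 (without oxygen replicate 2) to 8 with a library left out. Of the 12 calls of the 3 other lists, DESeq2 gave 19, no filter 23, the stricter nuclei filter 7 and a left-out library 6 (oxygen replicate 2) to 16 (sevoflurane replicate 1). The 2 called differences of response became 0 (without sevoflurane replicate 3 or oxygen replicate 2) to 2 with a library left out, an alternative added after seeing the data. With the replicate number as a block, which the labels do not show to be a pairing, the class calls were 5 and the list calls 7. That block ended the calls of Timp3 in endothelial-like nuclei (edgeR adjusted p 0.0518), Adamts9 and Adamts3 in CA3 pyramidal-like nuclei (0.0555 and 0.0588) and Mmp16 in dentate granule-like nuclei (0.0664), and added Adamts9 in endothelial-like nuclei (0.000118). Adamts1 in endothelial-like nuclei was called in each of the 15 alternatives run. DESeq2 gave no adjusted p for Adamts2 in CA3 pyramidal-like or Adamts16 in microglia-like nuclei. The call of Adamts9 in CA3 pyramidal-like nuclei was also lost with the span correction (0.0622) and with finer clustering (0.0787), and that of Adamts3 with doublets kept (0.0566). The cause of these changes was not tested. Counts over all genes moved too. In all nuclei 418 became 1418 with DESeq2, 64 with the block, 194 with the span correction and 0 (without oxygen replicate 3) to 246 with a library left out, with 158 higher and 260 lower as fitted, and 110 higher and 84 lower with the span correction. That correction changed the split from 28 higher and 148 lower to 29 and 66 in CA3 pyramidal-like nuclei, and from 58 and 221 to 49 and 88 in inhibitory-like nuclei. Of the 33 highest classes, 31 were the same with doublets kept and 30 with finer clustering. The stricter nuclei filter left too few endothelial-like nuclei to test. Few nuclei limited the vessel results: the endothelial-like class held 21 in sevoflurane replicate 1, and mural-like nuclei were too few for the main test.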
